A study of Mus musculus with 6 samples.

Results

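The genes described here encode the molecules that display peptides to T cells, measured in whole mouse hearts. The 10 members were the rows of the deposited gene table named H2-Aa, H2-Ab1, H2-Eb1, Cd74, H2-K1, H2-D1, B2m, Tap1, Tap2 and Tapbp, out of 25361 listed genes. The series compared hearts of wild-type C57BL/6N males, given as 12 weeks old, after 6 weeks of ISO+L-NAME (3 hearts) with hearts of untreated control males (3 hearts). The series title presents the treatment as a model of HFpEF, heart failure with preserved ejection fraction. L-NAME inhibits nitric oxide synthases; the labels do not spell out ISO and give no dose, and the design text gives 3 mice in each group. Each library was made from total heart RNA with a kit that reads messages from their 3′ end, so that long and short genes are counted alike. Libraries held between 2217974 and 2637364 counts. Cardiomyocyte markers were at a high level in all 6 libraries, with 8 of 8 listed markers tested and summed levels of 40282 to 43468 counts per 1000000 (CPM) in ISO+L-NAME hearts and 42480 to 43284 CPM in controls. Of these 8 markers 2 were called higher, 2 lower and 4 not called. Over all tested genes, 3.41% were called higher and 2.68% lower. The ventricular light chain gene Myl2 and the heavy chain gene Myh6 fell by 0.45 ± 0.09 and 0.33 ± 0.09 on the log2 scale (edgeR adjusted p = 0.00365 and 0.0272). The calcium release channel gene Ryr2 rose by 0.43 ± 0.10 (edgeR adjusted p = 0.0154). The other marker called higher was Actc1, just under the threshold of 0.05 (log2 change 0.32 ± 0.09, edgeR adjusted p = 0.0490). The calls of Myl2 and Myh6 were lost with total counts alone, that of Myh6 also without control 1 or without any 1 ISO+L-NAME heart (0.0593 to 0.139), and that of Ryr2 when ISO+L-NAME 2, control 1 or control 2 was left out (0.0624 to 0.147). In bulk tissue, fewer cells of a type and less RNA per cell cannot be told apart.

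Class II molecules present peptides from engulfed material to CD4+ T cells. They are pairs of an alpha and a beta chain, held by the invariant chain, encoded by Cd74, until a peptide is loaded, and are made mainly by macrophages, dendritic cells and B cells. The heart's resident macrophages include a class II-high population. Class I molecules present peptides from the cell's own proteins to CD8+ T cells, consist of a heavy chain such as H2-K or H2-D bound to beta-2-microglobulin (B2m), and are made by nearly every nucleated cell. Peptides reach class I molecules through the TAP transporter, formed by Tap1 and Tap2, with tapasin (Tapbp) bridging transporter and heavy chain. Class II genes are switched on by the coactivator CIITA and class I genes by its relative NLRC5, neither of which binds DNA itself. Both are recruited to a shared promoter module in which an X box and a Y box, bound by RFX, CREB-family and NF-Y factors, lie at a fixed distance.

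The promoter windows are shown because that module is what class I and class II genes have in common. Of the 10 members, 7 were in a RefSeq table of promoters on build GRCm38.p6, and H2-Ab1, Cd74 and Tap2 were not. Each window holds the 250 bases before an annotated start, 5′ to 3′ on the gene's strand, and for H2-K1, with 2 starts listed, the first was used. Capitals mark TGANG followed on the same strand by ATTGG with 15 to 25 bases between them, and, in H2-K1 and H2-D1, the sequence GGGGATTCC. Where several TGANG lay in that range before an ATTGG, only the nearest is marked. TGACG is the core of a CREB-type site, ATTGG is the Y box read on this strand, and GGGGATTCC is a site of the NF-kappaB type in the class I enhancer. The windows are H2-Aa at chr17:34287824-34288073 on the minus strand, H2-Eb1 at chr17:34305617-34305866 on the plus strand, H2-K1 at chr17:34000348-34000597 on the minus strand, H2-D1 at chr17:35262844-35263093 on the plus strand and B2m at chr2:122147437-122147686 on the plus strand.
H2-Aa: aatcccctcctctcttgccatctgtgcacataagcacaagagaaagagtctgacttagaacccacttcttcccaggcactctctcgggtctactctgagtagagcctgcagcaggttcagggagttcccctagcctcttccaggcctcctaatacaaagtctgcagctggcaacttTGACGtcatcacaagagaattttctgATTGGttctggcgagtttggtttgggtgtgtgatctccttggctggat
H2-Eb1: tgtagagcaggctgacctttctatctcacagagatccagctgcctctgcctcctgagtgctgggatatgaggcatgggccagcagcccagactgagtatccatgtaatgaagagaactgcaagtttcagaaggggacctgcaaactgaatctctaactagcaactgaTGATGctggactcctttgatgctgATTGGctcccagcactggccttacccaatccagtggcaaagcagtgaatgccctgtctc
H2-K1: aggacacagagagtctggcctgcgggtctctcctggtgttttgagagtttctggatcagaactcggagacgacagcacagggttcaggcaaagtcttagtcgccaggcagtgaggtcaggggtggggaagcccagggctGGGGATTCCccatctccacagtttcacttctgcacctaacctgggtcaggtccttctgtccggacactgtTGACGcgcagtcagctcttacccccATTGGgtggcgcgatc
H2-D1: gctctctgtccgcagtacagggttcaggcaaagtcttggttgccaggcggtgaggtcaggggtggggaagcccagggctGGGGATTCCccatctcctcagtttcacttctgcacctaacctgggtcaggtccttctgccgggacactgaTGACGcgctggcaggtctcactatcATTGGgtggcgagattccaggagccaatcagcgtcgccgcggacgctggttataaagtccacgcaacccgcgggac
B2m: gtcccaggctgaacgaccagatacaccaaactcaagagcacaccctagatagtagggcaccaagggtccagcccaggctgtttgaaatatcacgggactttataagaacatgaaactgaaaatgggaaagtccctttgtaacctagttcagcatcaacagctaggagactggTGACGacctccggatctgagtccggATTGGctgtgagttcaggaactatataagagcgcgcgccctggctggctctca

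All 5 of these windows held the TGANG and ATTGG pair once, with a gap of 21 bases in H2-Aa, 19 in H2-Eb1 and 20 in H2-K1, H2-D1 and B2m. The first element was TGATG in H2-Eb1 and TGACG in the other 4. The pair was searched on both strands and was present in 808 of 32851 windows of the same length (2.46%). The windows of Tap1 and Tapbp did not hold the pair at this spacing. Both held ATTGG alone on at least 1 strand, as did 33.8% of all windows. GGGGATTCC was in the windows of H2-K1 and H2-D1 and in 70 of all windows on either strand (0.213%). The motifs were chosen with these sequences in view, and a match is a description of letters.

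None of the members passed the test of ISO+L-NAME against control, while the 4 class II genes varied widely among the treated hearts. Levels below are CPM at library sizes adjusted by TMM scaling. H2-Aa, the alpha chain of the class II molecule I-A (ENSMUSG00000036594; chromosome 17, 34501718 to 34506797 on GRCm39, minus strand), had 77.4, 38.1 and 9.32 CPM in ISO+L-NAME hearts 1, 2 and 3, against 59.3, 37.5 and 47.2 CPM in control hearts 1, 2 and 3. Heart 1 of the treated group was the highest of all 6 and heart 3 the lowest, so the treated values enclosed all control values. H2-Ab1, the beta chain of I-A (chromosome 17, 34476663 to 34488393, plus strand), had 55.5, 33.8 and 6.21 CPM in ISO+L-NAME hearts, against 38.3, 22.5 and 28.4 CPM in controls. H2-Eb1, the beta chain of the second class II molecule, I-E (chromosome 17, 34524841 to 34535648, plus strand), had 46.5, 31.5 and 5.44 CPM in ISO+L-NAME hearts, against 37.4, 28.5 and 27.4 CPM in controls. The order of the treated hearts was the same in all 3 chain genes. C57BL/6 mice are known to carry a defective gene for the I-E alpha chain, H2-Ea, and that gene had 0 counts in all 6 libraries. Cd74 (chromosome 18, 60936920 to 60945724, plus strand) had 33.6, 28.3 and 2.33 CPM in ISO+L-NAME hearts, against 25.1, 16.5 and 24.1 CPM in controls. Its lowest value rested on 6 counts, with an exact 95% Poisson interval of 0.855 to 5.07 CPM that lay below every other heart's value.

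**Figure D1:**
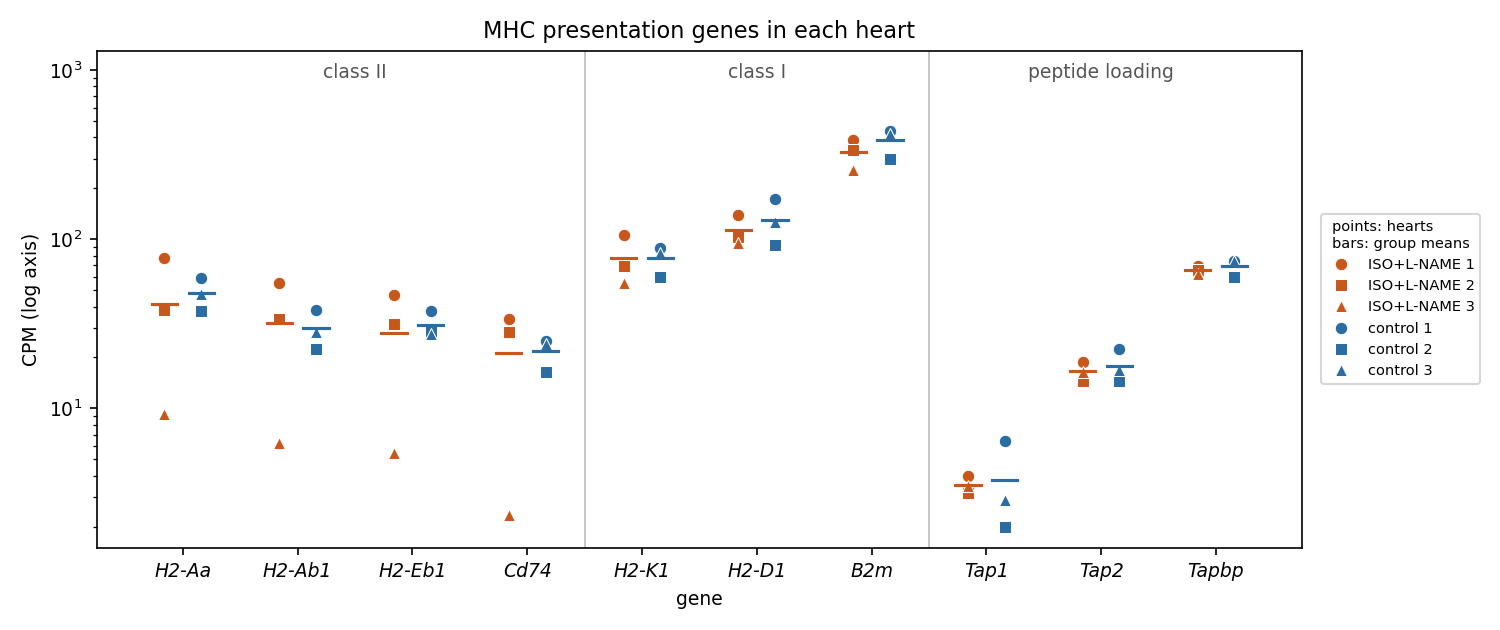
CPM of the 10 members on a log axis, with 1 point per heart, ISO+L-NAME hearts left of control hearts for each gene, and bars at the group means (n = 3 each). The triangle of ISO+L-NAME heart 3 lies far below the others in the 4 class II genes, at 2.33 to 9.32 CPM, and close to them in the class I and loading genes.

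Among the ISO+L-NAME hearts the summed class II level was 9.14-fold higher in heart 1 than in heart 3 (95% exact interval 7.01 to 12.1), whereas the highest and lowest controls differed by 1.52-fold (1.28 to 1.82). These intervals cover counting error only. The highest-to-lowest fold among treated hearts was 8.31 for H2-Aa, 8.93 for H2-Ab1, 8.56 for H2-Eb1 and 14.4 for Cd74, the last with an interval of 6.39 to 40.2. In controls the same folds were 1.58 for H2-Aa, 1.70 for H2-Ab1, 1.36 for H2-Eb1 and 1.52 for Cd74. On the log2 scale the standard deviation over the 3 treated hearts was 1.50 for H2-Aa, 1.57 for H2-Ab1, 1.55 for H2-Eb1 and 1.92 for Cd74. Over the 3 controls it was 0.32, 0.37, 0.24 and 0.32 for the same genes. Across the 5742 tested genes with a mean of at least 10 CPM the median standard deviation was 0.17 in ISO+L-NAME hearts and 0.19 in controls. The class II genes ranked 5 (Cd74), 7 (H2-Ab1), 8 (H2-Eb1) and 9 (H2-Aa) of the 5742 for spread among treated hearts, and 1101, 705, 2055 and 1060 among controls. With 3 hearts a group, no test was made of whether heart 3 stands apart, and the labels give nothing that separates it from the other treated hearts.

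Class I genes were more abundant than class II genes, and varied less among the treated hearts but not among the controls. B2m (ENSMUSG00000060802; chromosome 2, 121978167 to 121983564, plus strand) had 388, 338 and 256 CPM in ISO+L-NAME hearts, against 436, 297 and 421 CPM in controls. H2-D1, a classical heavy chain (chromosome 17, 35481706 to 35486475, plus strand), had 140, 103 and 95.5 CPM in ISO+L-NAME hearts, against 173, 92.1 and 126 CPM in controls. The groups overlapped in both genes, and control 2 was the lowest control in each. H2-K1, the other classical heavy chain (chromosome 17, 34214991 to 34219321, minus strand), had 107, 69.2 and 55.1 CPM in ISO+L-NAME hearts, against 89.0, 59.5 and 82.8 CPM in controls. Heart 3 was again the lowest treated heart in all 3 genes, but the summed class I level of heart 1 was only 1.56-fold that of heart 3 (95% exact interval 1.45 to 1.68), and the highest and lowest controls also differed by 1.56-fold (1.43 to 1.69). H2-K1, H2-D1 and other class I heavy chains are near-identical in places, and the handling of reads that match more than 1 of them is not given in the sources used here, so the split between these genes is uncertain.

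Of the peptide loading genes, Tapbp and Tap2 varied least of the tested members among the treated hearts, with a standard deviation of 0.08 and 0.18 on the log2 scale. Tapbp (chromosome 17, 34134873 to 34148266, plus strand) had 69.8, 65.7 and 62.5 CPM in ISO+L-NAME hearts, against 74.4, 60.0 and 74.1 CPM in controls. Tap2 (chromosome 17, 34422501 to 34435295, plus strand) had 18.9, 14.5 and 16.3 CPM in ISO+L-NAME hearts, against 22.4, 14.5 and 16.8 CPM in controls. Tap1 (chromosome 17, 34406527 to 34416199, plus strand) had 12, 8 and 9 counts in ISO+L-NAME hearts, against 14, 4 and 6 counts in controls, too few for the test. In Tapbp and Tap2 all treated values lay within the range of the controls.

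Set against each other within a library, class II and class I diverged among the treated hearts. The summed counts of H2-Aa, H2-Ab1, H2-Eb1 and Cd74 were 641, 335 and 60 in ISO+L-NAME hearts, and 351, 210 and 264 in controls. Those of H2-K1, H2-D1 and B2m were 1911, 1298 and 1048 in ISO+L-NAME hearts, and 1531, 896 and 1309 in controls. The ratio of class II to class I counts, which needs no scaling between libraries, was 0.335 (95% exact interval 0.306 to 0.367), 0.258 (0.228 to 0.291) and 0.0573 (0.0434 to 0.0743) in ISO+L-NAME hearts. In controls it was 0.229, 0.234 and 0.202, with intervals from 0.176 to 0.273. The group means were 0.217 ± 0.144 in ISO+L-NAME hearts and 0.222 ± 0.0176 in controls (SD, n = 3 each), so the means lay close while the treated hearts fell on both sides of the controls. Without ISO+L-NAME 3 the treated mean was 0.297, and without ISO+L-NAME 1 it was 0.158. Since the genes were chosen, no p is given for this ratio.

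**Figure D2:**
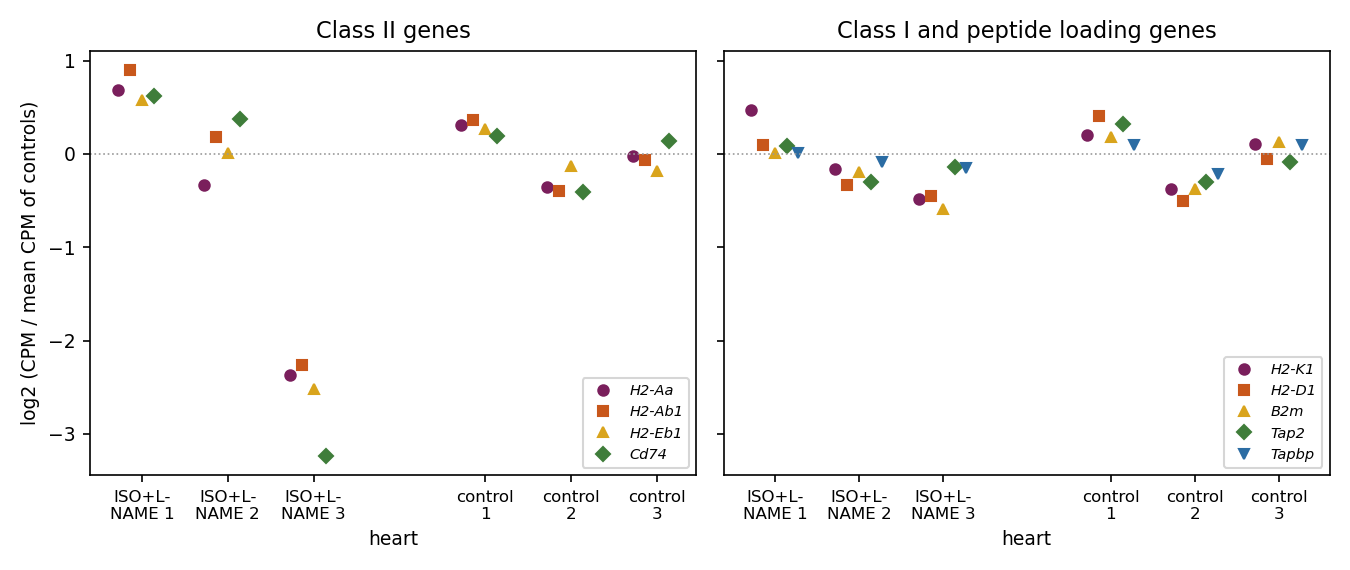
Log2 of each heart's CPM over the mean CPM of the 3 controls, for the class II genes on the left and the tested class I and loading genes on the right, with ISO+L-NAME hearts left of control hearts. ISO+L-NAME heart 3 lies between -3.23 and -2.26 in the 4 class II genes and between -0.59 and -0.13 in the other 5.

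The proportions among the class II messages varied less than their levels, but were not constant. H2-Aa made up 36.3%, 29.0% and 40.0% of the class II counts in ISO+L-NAME hearts, and 37.0%, 35.7% and 37.1% in controls. In ISO+L-NAME 2 its exact 95% interval, 24.2% to 34.1%, lay below every control value but overlapped the counting interval of every control. H2-Ab1 made up 25.7% to 26.7% in ISO+L-NAME hearts and 21.4% to 23.9% in controls, without overlap, although every treated heart's counting interval overlapped those of the controls. H2-Eb1 made up 21.8% to 23.9% in ISO+L-NAME hearts and 21.6% to 27.1% in controls. Cd74 was 15.8%, 21.5% and 10.0% of class II counts in ISO+L-NAME hearts, and 15.7%, 15.7% and 18.9% in controls. The 10.0% of heart 3 had an exact 95% interval of 3.76% to 20.5%, which held every control value. Cd74 counts per H2-Aa count were 0.433, 0.742 and 0.250 in ISO+L-NAME hearts, and 0.423, 0.440 and 0.510 in controls. Within class I, B2m made up 61.2% to 66.2% in ISO+L-NAME hearts and 62.4% to 66.8% in controls, and the ratio of H2-K1 to H2-D1 counts ran from 0.577 to 0.762 in ISO+L-NAME hearts and from 0.513 to 0.656 in controls.

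The order of levels in controls was B2m at 385 ± 76.5 CPM, H2-D1 at 131 ± 40.8, H2-K1 at 77.1 ± 15.5, Tapbp at 69.5 ± 8.20 and H2-Aa at 48.0 ± 10.9 (SD, n = 3). It continued with H2-Eb1 at 31.1 ± 5.47, H2-Ab1 at 29.7 ± 7.99, Cd74 at 21.9 ± 4.69, Tap2 at 17.9 ± 4.03 and Tap1 at 3.76 ± 2.32 CPM. H2-K1 and Tapbp, H2-Eb1 and H2-Ab1, and Cd74 and Tap2 each differed by less than their spread. These are levels by 3′-end counts, which do not need division by length but depend on how well each 3′ end is annotated.

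In the fit across all 8531 tested genes, the quasi-likelihood test of edgeR, with p adjusted by Benjamini-Hochberg and a threshold of 0.05, called 520 genes (6.10%), and 0 of the 9 tested members. Tap1 did not have enough counts to be tested. None of the 9 passed an unadjusted p of 0.05 in edgeR, DESeq2 or limma-voom. The values of the groups overlapped in 10 of 10 members, while 22.7% of all tested genes had no overlap. The members' median log2 change was -0.11, beside -0.01 over all tested genes. Differences are given on the log2 scale, treated minus control, each with a standard error and an approximate 95% interval. H2-Aa differed by -0.18 ± 0.37 (-0.95 to 0.58), H2-Ab1 by 0.12 ± 0.39 (-0.68 to 0.92), H2-Eb1 by -0.14 ± 0.37 (-0.90 to 0.62) and Cd74 by -0.02 ± 0.42 (-0.89 to 0.86). Their edgeR adjusted p ran from 0.871 to 0.991, and their intervals together reached from -0.95 to 0.92. Among class I genes B2m differed by -0.23 ± 0.15 (-0.53 to 0.07, edgeR adjusted p = 0.452), H2-D1 by -0.21 ± 0.18 (-0.57 to 0.16, edgeR adjusted p = 0.613) and H2-K1 by 0.00 ± 0.19 (-0.39 to 0.40, edgeR adjusted p = 0.996). Tap2 and Tapbp differed by -0.11 ± 0.22 (-0.56 to 0.34) and -0.08 ± 0.13 (-0.34 to 0.19), with edgeR adjusted p of 0.868 and 0.835.

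The direction of the class II estimates depended on single hearts. Without ISO+L-NAME 3 the log2 differences were 0.28 for H2-Aa, 0.59 for H2-Ab1, 0.33 for H2-Eb1 and 0.50 for Cd74. Without ISO+L-NAME 1 they were -1.02, -0.58, -0.76 and -0.52 for the same genes, and none passed (smallest edgeR adjusted p = 0.0823). The fitted coefficient of variation was 30.7% to 35.4% in the class II genes and 8.94% to 15.4% in the other 5 tested members, beside a common value of 10.8% over all genes. Limma-voom, which averages log values, gave -0.60, -0.31, -0.57 and -0.65 for H2-Aa, H2-Ab1, H2-Eb1 and Cd74. With scaling by total counts alone the median of all genes lay 0.30 higher on the log2 scale, and all 9 differences were then above 0, from 0.07 for B2m to 0.43 for H2-Ab1, with none called. Mitochondrial genes took 45.5% to 47.8% of counts in ISO+L-NAME hearts and 53.6% to 56.7% in controls, and the TMM factors were 1.09 to 1.15 in ISO+L-NAME hearts and 0.857 to 0.944 in controls, so both separated the groups. With mitochondrial genes left out, 500 genes were called, again with 0 members, and of the pathway genes called below, Ctsb lost its call (0.0521). The part of the mitochondrial share in the marker and list values was otherwise not tested.

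**Figure D3:**
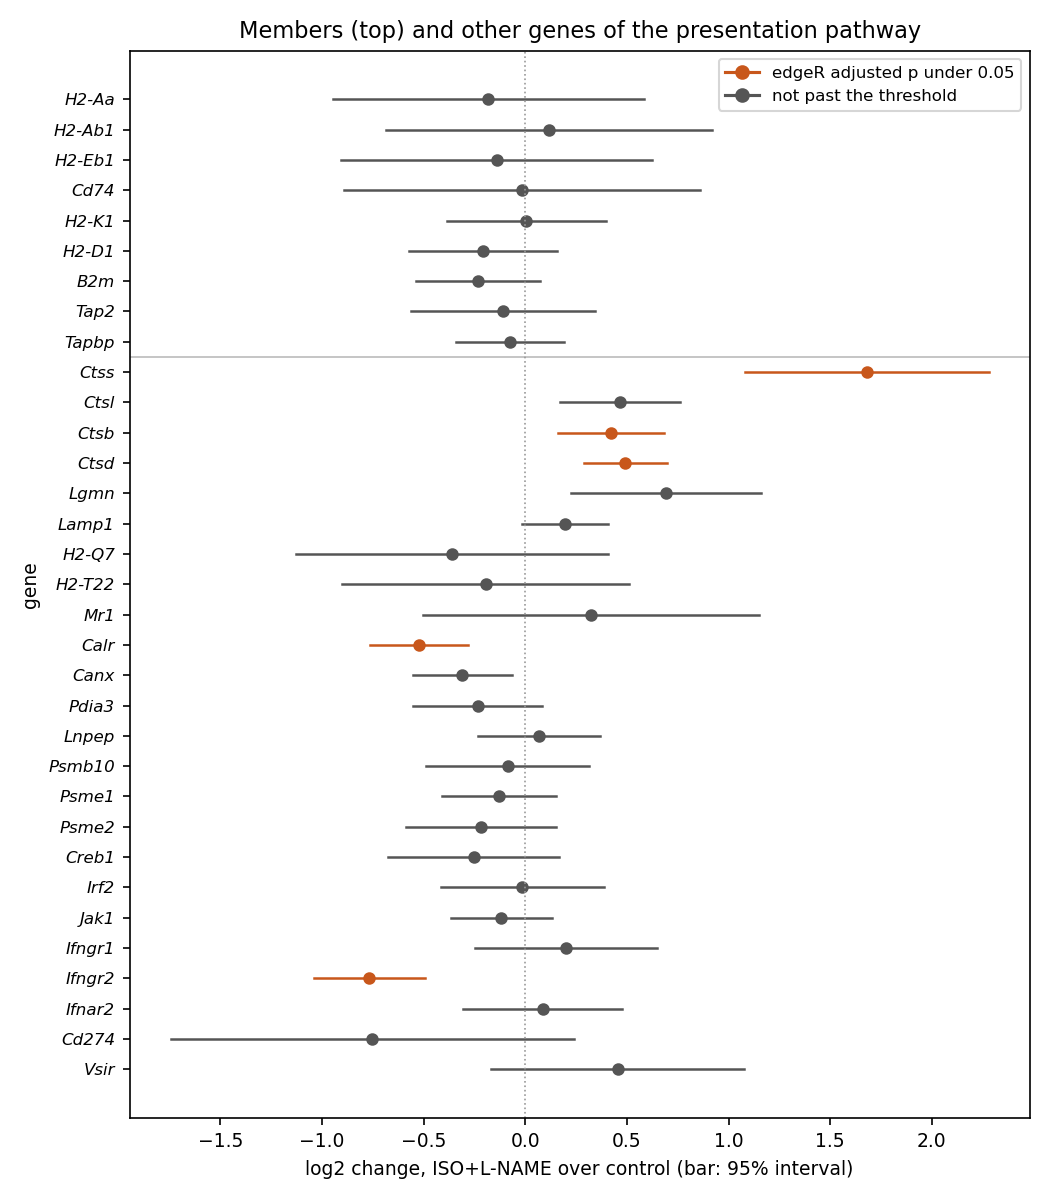
Log2 change of ISO+L-NAME over control with its approximate 95% interval for the 9 tested members (above the line) and named genes of the wider presentation pathway (below it), coloured where edgeR's adjusted p was under 0.05. All 9 member intervals cross 0, and Ctss lies farthest to the right at 1.68.

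Around the members, 3 proteases of class II antigen processing rose, with Ctsb at the edge of the threshold. Of 8 listed genes 7 were tested, of which 3 were higher, 0 lower and 4 not called, with a median log2 change of 0.47, beside 3.41% of all tested genes called higher. Ctss, the cathepsin that trims the invariant chain, had 24.6, 25.6 and 14.4 CPM in ISO+L-NAME hearts, against 5.47, 5.0 and 9.63 CPM in controls. All treated hearts lay above all controls, at a log2 change of 1.68 ± 0.29 (edgeR adjusted p = 0.000692). Ctss is also a macrophage product, and heart 3, lowest for class II, was the lowest treated heart for Ctss too, yet above every control. The lysosomal protease gene Ctsd averaged 582 ± 31.4 CPM in ISO+L-NAME hearts and 413 ± 12.2 CPM in controls (SD, n = 3), a log2 change of 0.49 ± 0.10 (edgeR adjusted p = 0.00291). Ctsb rose by 0.42 ± 0.13 at an edgeR adjusted p of 0.0499, and its call was lost without any 1 of the 6 libraries (0.0617 to 0.201) and in DESeq2 (0.0887). That call was also lost with the deposited library sizes (0.0589) and with a minimum of 5 CPM (0.0532). Ctsl and Lgmn, 2 more endosomal proteases, were not called at 0.47 ± 0.14 and 0.69 ± 0.22 (edgeR adjusted p = 0.0553 and 0.0748), although Ctsl was called without ISO+L-NAME 1 (0.0168), with a robust fit (0.0390), with no filter (0.0225) and with total counts alone (0.00126), and Lgmn with total counts alone (0.00600). The lysosomal membrane gene Lamp1 was not called at 0.20 ± 0.10 (edgeR adjusted p = 0.334), but was with total counts alone (0.00302). The peptide exchange genes were too low to test: over all libraries of a group, H2-DMa had 20 counts in ISO+L-NAME hearts and 10 in controls, and H2-DMb1 had 24 and 8 in the same order. H2-Eb2 had 0 counts in every library.

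On the class I side the loading chaperone calreticulin fell. Calr had 117, 95.1 and 103 CPM in ISO+L-NAME hearts, against 141, 158 and 154 CPM in controls, with no overlap (log2 change -0.52 ± 0.12, edgeR adjusted p = 0.00752). The call was lost without ISO+L-NAME 2 (0.0680) and with total counts alone (log2 change -0.21). It was the 1 called of 10 loading and trimming genes, all tested, beside 2.68% of all tested genes called lower, and the list's median log2 change was 0.01. Its membrane-bound relative Canx differed by -0.31 ± 0.12, Pdia3, the oxidoreductase of the loading complex, by -0.23 ± 0.15, and Lnpep, a peptidase that trims peptides, by 0.07 ± 0.14, none of them called (edgeR adjusted p = 0.143, 0.476 and 0.876). Calr, Canx and Pdia3 are general chaperones of the endoplasmic reticulum as well. The immunoproteasome and its PA28 activator had 0 of 5 genes called, with a median of -0.13, and differences of -0.13 ± 0.13 for Psme1, -0.22 ± 0.18 for Psme2 and -0.09 ± 0.19 for Psmb10. Of 19 other class I heavy chains and class I-like genes 18 were in the table, 7 had 0 counts throughout and 3 were tested, with 0 called. H2-Q7, a nonclassical chain, had 12.3, 6.68 and 3.49 CPM in ISO+L-NAME hearts, against 11.9, 5.50 and 12.0 CPM in controls (-0.36 ± 0.37, edgeR adjusted p = 0.688). H2-T22 and the class I-like gene Mr1 differed by -0.19 ± 0.34 and 0.32 ± 0.40.

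Of the genes that control MHC expression, 13 of 16 were tested and 0 called, with a median log2 change of -0.12. Ciita, the class II coactivator, had 6, 0 and 0 counts in ISO+L-NAME hearts, against 1, 0 and 1 in controls, and Nlrc5 had 2, 1 and 3 against 3, 0 and 2. At this depth no difference in either could be detected. The kinase gene Jak1 differed by -0.12 ± 0.12, the X-box binding factor gene Creb1 by -0.25 ± 0.20 and Irf2 by -0.01 ± 0.19 (edgeR adjusted p = 0.682, 0.585 and 0.983). Ifng, which encodes the main inducer of class II, had 0 counts in all 6 libraries, which allows up to 0.997 to 1.50 CPM per library (3 counts). Ifngr2, the second chain of its receptor, fell: it had 49.5, 46.0 and 41.9 CPM in ISO+L-NAME hearts, against 72.5, 87.6 and 74.6 CPM in controls (log2 change -0.77 ± 0.13, edgeR adjusted p = 0.000676). It was called in every fit without 1 library. Ifngr1, the ligand-binding chain, and Ifnar2 differed by 0.20 ± 0.22 and 0.09 ± 0.19 without passing. Of 8 costimulators and checkpoint ligands 2 had enough counts. Cd274, which encodes PD-L1, had 14, 7 and 2 counts in ISO+L-NAME hearts, against 12, 6 and 12 in controls (-0.75 ± 0.48, edgeR adjusted p = 0.457), and Vsir differed by 0.45 ± 0.30.

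Markers of cells that can carry class II were set beside these values. Of 15 macrophage and monocyte markers 11 were tested, 5 rose and 0 fell, with a median log2 change of 0.90, beside 3.41% of all tested genes called higher. Their summed level was 386 to 452 CPM in ISO+L-NAME hearts and 202 to 255 CPM in controls, with no overlap. The lysozyme gene Lyz2 made up a large share, with 153, 116 and 143 CPM in ISO+L-NAME hearts, against 65.7, 50.04 and 61.1 CPM in controls (log2 change 1.22 ± 0.14, edgeR adjusted p = 1.04e-05). C1qb and C1qc, which encode chains of complement C1q, were higher by 1.14 ± 0.17 and 0.90 ± 0.16 on the log2 scale (edgeR adjusted p = 0.000213 and 0.00128). In heart 3 of the treated group, C1qb was at 42.3 CPM, between 54.8 and 42.1 CPM of hearts 1 and 2, so the low class II level of that heart was not seen in these 3 markers. Mrc1, the macrophage mannose receptor, and the lysosomal marker Cd68 were the other 2 that rose, by 1.25 ± 0.23 and 1.30 ± 0.36 (edgeR adjusted p = 0.00165 and 0.0360). Class II counts per Lyz2 count were 1.39, 1.14 and 0.163 in ISO+L-NAME hearts, against 2.44, 2.10 and 2.08 in controls. All treated hearts lay below all controls on this ratio, which is given without a test. Lyz2 itself was higher in every treated heart, and a higher divisor lowers the ratio. Per count of the endothelial gene Pecam1, class II counts were 3.10, 2.22 and 0.405 in ISO+L-NAME hearts, against 2.14, 2.04 and 1.86 in controls. On that ratio hearts 1 and 2 lay above all controls and heart 3 below them, also without a test.

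The leukocyte and macrophage markers were mixed in their order among the treated hearts. Heart 1 was highest and heart 3 lowest, as for class II, in 4 of the 6 pan-leukocyte markers and in 4 of the 15 macrophage and monocyte markers. Against that order, heart 1 was the lowest treated heart for Mrc1, at 21.6, 31.1 and 26.8 CPM in ISO+L-NAME hearts 1, 2 and 3, for Lyve1, a marker of resident macrophages, at 21.3, 25.6 and 36.9 CPM, and for Cd163 and Cd48. The genes given next were picked, after their values were seen, because they follow the order of class II. Ccr2, a receptor of recruited monocytes, had 20, 12 and 3 counts in ISO+L-NAME hearts, against 7, 1 and 1 in controls. Cx3cr1, a receptor of monocytes and resident macrophages, had 21, 8 and 3 counts in ISO+L-NAME hearts, against 11, 7 and 5 in controls. The pan-leukocyte gene Ptprc had 34, 13 and 8 counts in ISO+L-NAME hearts, against 5, 4 and 6 in controls. The folds between hearts 1 and 3, 5.70 for Ccr2, 5.99 for Cx3cr1 and 3.64 for Ptprc, rested on few counts, with intervals from 1.65 to 31.4. The 6 leukocyte markers summed to 44.8, 28.3 and 22.5 CPM in ISO+L-NAME hearts, against 16.9, 17.5 and 21.2 CPM in controls. Of the 2 tested, none was called. Their part in the class II values was not tested.

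Most defining markers of B cells and of dendritic cells were at or near 0. Of 9 B cell markers 3 (Cd22, Ighm and Ighd) had 0 counts throughout, and the list summed to 1.94 to 3.65 CPM in ISO+L-NAME hearts and 1.44 to 3.00 CPM in controls. Cd37 gave most of the treated sum, with 9, 5 and 4 counts in ISO+L-NAME hearts, against 1, 2 and 0 in controls. Of 9 dendritic cell markers none was at 0 in every library, but Flt3, Xcr1, Clec9a and Ccr7 had at most 1 count in any, and the list summed to 8.15 to 12.3 CPM in ISO+L-NAME hearts and 13.0 to 15.4 CPM in controls. Cd209a had 5, 0 and 0 counts in ISO+L-NAME hearts, against 0, 1 and 0 in controls. Itgax had 3, 1 and 2 counts in ISO+L-NAME hearts, against 0, 0 and 0 in controls. Zbtb46, which endothelial cells also express, gave most of that sum, at 6.99 to 8.97 CPM in ISO+L-NAME hearts and 11.01 to 14.9 CPM in controls, without overlap and without being called (edgeR adjusted p = 0.0987). T and NK cell markers summed to 0.777 to 3.15 CPM in ISO+L-NAME hearts and 1.50 to 2.41 CPM in controls, with Klrb1c at 0. Neutrophil markers summed to 8.26 to 21.0 CPM in ISO+L-NAME hearts and 0.912 to 3.00 CPM in controls, with Ly6g at 0. The genes S100a8 and S100a9 gave most of the treated sum. The alarmin gene S100a8, the only 1 of the list tested, was called higher (2.76 ± 0.56, edgeR adjusted p = 0.00365), beside 3.41% of all tested genes. Endothelial cells express class I strongly: their 10 markers, all tested, had 1 called lower (Aqp1, -1.07 ± 0.15, edgeR adjusted p = 0.000105), beside 2.68% of all tested genes, and summed to 1031 to 1067 CPM in ISO+L-NAME hearts and 1156 to 1363 CPM in controls. Fibroblast markers had 4 of 7 tested called higher, beside 3.41% of all tested genes, and summed to 838 to 1183 CPM in ISO+L-NAME hearts and 463 to 718 CPM in controls. They were Col1a1 and Col1a2, the chains of type I collagen, at 1.50 ± 0.21 and 1.20 ± 0.19 (edgeR adjusted p = 7.47e-05 and 0.000274, but 0.0781 and 0.148 with a robust fit), Pi16 at 1.22 ± 0.27 (edgeR adjusted p = 0.00748) and Lum, a collagen-binding proteoglycan, at 1.00 ± 0.22 (edgeR adjusted p = 0.00613).

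**Figure D4:**
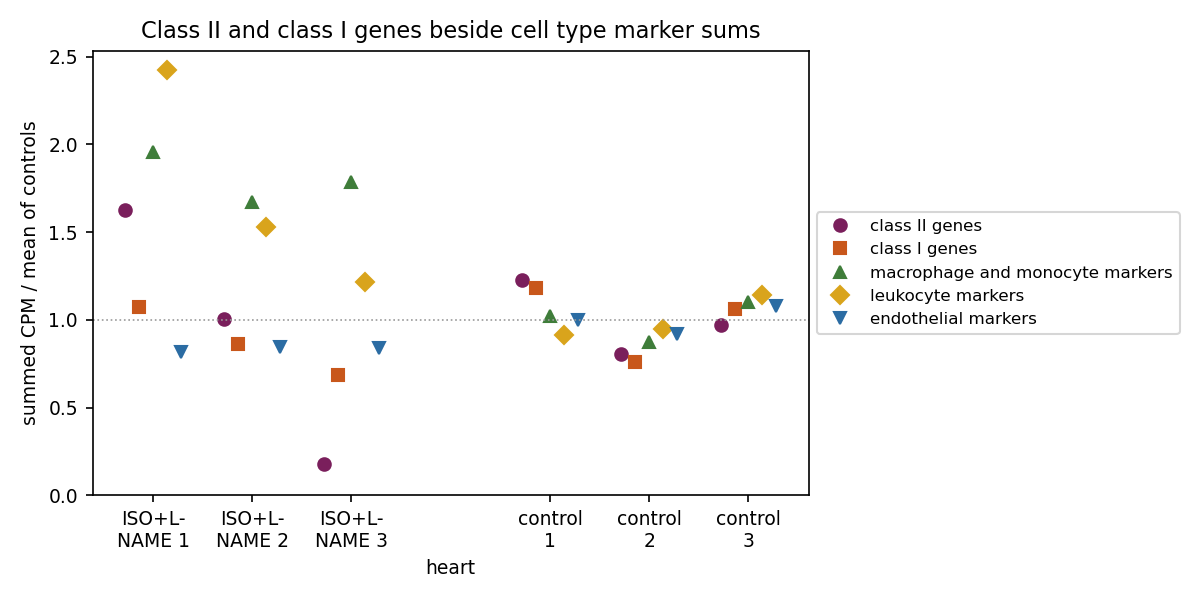
Summed CPM of the class II genes, the class I genes and 3 marker lists in each heart, each divided by its own mean over the 3 controls, with ISO+L-NAME hearts left of control hearts. In ISO+L-NAME heart 3 the class II sum is the lowest of all hearts at 23.3 CPM, while the macrophage and monocyte markers, at 412 CPM, stay above every control.

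Genes whose pattern was most like the members were found by the root mean square difference of centred log2 CPM over the 6 libraries, among 7897 other genes with a mean of at least 5 CPM. The members of class II lay within 0.11 to 0.24 of their own mean pattern, a distance made smaller because each is part of that mean. Other genes are not part of it, so their distances are not on the same footing. The nearest was Sema6a, a transmembrane semaphorin, at 0.50, with 31.9, 25.9 and 10.5 CPM in ISO+L-NAME hearts, against 35.1, 27.5 and 22.6 CPM in controls. Then came Tspan18 at 0.51, the interferon-inducible GTPase gene Tgtp2 at 0.53, Gar1 at 0.54 and Pithd1 at 0.56, where a flat profile would lie at 0.99. Tgtp2 had 22, 15 and 6 counts in ISO+L-NAME hearts, against 22, 14 and 14 in controls. For class I the nearest genes were Actl6a, Ccdc115, Flna, Ciz1 and Pea15a, at 0.07 to 0.10, where a flat profile would lie at 0.29. The 3 class I members, also part of their own mean, lay at 0.09 to 0.10. These 10 genes of similar pattern share the 6 libraries and their scaling with the members, and none was called (smallest edgeR adjusted p = 0.131, for Tspan18). Tspan18 was called lower without ISO+L-NAME 1 (0.0168) and with no filter (0.0202).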

How the data were processed

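Heart RNA of 3 ISO+L-NAME and 3 control mice was extracted with Trizol and made into QuantSeq 3′ libraries, per the labels' protocols. The values used are whole-number read counts per gene, as the authors deposited them. The authors also deposited a scaled signal, headed CPM, equal to the count times 1 constant per library and summing to 789185 in ISO+L-NAME 1, so it served only as alternative library sizes. The submitters' processing notes name bcl2fastq and GRCm39. The aligner, counter, annotation release, strand setting and use of molecular identifiers were not given in the sources used here.

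Low genes were removed with filterByExpr (at least 10 counts, 15 in total). Libraries were scaled by TMM. The fit was edgeR 4.0.16 under R 4.3.3, by glmQLFit and glmQLFTest with the group alone, and p was adjusted over all genes. Each standard error is the size of the log2 change divided by the root of F, and intervals use the fit's degrees of freedom. The fit was tested on simulated data. Exact Poisson and Clopper-Pearson intervals cover counting error only. Spread and likeness used log2 CPM with a prior count of 2. Within groups, library pairs differed beyond sampling noise (chi-square per degree of freedom 2.10 to 3.42). Alternatives were RLE scaling, total counts alone, deposited sizes, no filter, a 5 CPM minimum, a robust fit, DESeq2 1.42.0, limma-voom (limma 3.58.1), mitochondrial genes left out, a replicate block, and each library left out.

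The members and lists were chosen with earlier results of these data known. The rule for names took the 10 members, up to 4 called and 3 abundant uncalled genes per pathway list, up to 3 called and all zero-count markers per cell type, and 5 genes of similar pattern per class. Other names are said to be chosen after their values were seen, and these include H2-Ea, Mrc1, Cd68, Lyve1, Cd163, Cd48, Pi16, Zbtb46, the peptide exchange genes, Ciita and Nlrc5. They also include Pecam1, Chtf8, Gm42742, Rpl9-ps6, Atf3, Acta1, Btg2, Cd209a, Itgax, Cd37, Actc1, Ifnar1 and S100a9. The macrophage count under the alternatives was added after seeing the data.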

Additional observations from a re-analysis of the deposited data

How the results depend on the processing

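None of the members was called in any setting run, with an adjusted p of 0.0823 or more. At an unadjusted p of 0.05, 3 members passed without ISO+L-NAME 1, 2 without ISO+L-NAME 3, 2 without control 2 and 1 with no filter. The number of genes called, 520 with TMM, was 1479 with total counts alone (95.1% of them higher, against 56.0% with TMM), 335 with DESeq2, and 301 to 494 with 1 library left out. Total counts alone gave 6 called genes for class II antigen processing, where the other settings gave 2 to 4, and 0 for class I loading and trimming. It gave 8 macrophage and monocyte markers, which was 4 to 6 in the other settings. With 1 library left out the count was 0 to 1 for class I loading and trimming and 0 to 1 for transcriptional regulators. In the list of interferon ligands and receptors it was 1 to 2, and also 2 with no filter. The second gene there was Ifnar1, of the type I interferon receptor, which was not tested in the main fit. Its log2 change was 1.81 without ISO+L-NAME 1 and 1.49 with no filter (edgeR adjusted p = 0.0263 and 0.0362), opposite in sign to Ifngr2. Same-numbered hearts had no clear shared deviation, with correlations of 0.06, -0.03 and -0.01, which cannot show whether they were paired. A fit with the replicate block called 560 genes and none of the members. It added a call for Tspan18 (adjusted p = 0.0448). The ratio of class II to class I differed by -0.0641 to 0.0750 between the groups with 1 library left out.

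Signs turned in uncalled genes. With total counts alone the log2 change was 0.13 for H2-Aa, 0.17 for H2-Eb1, 0.29 for Cd74, 0.10 for H2-D1, 0.070 for B2m, 0.20 for Tap2 and 0.23 for Tapbp. In the same setting it was 0.11 for H2-T22, 0.066 for Pdia3, 0.18 for Psme1, 0.093 for Psme2, 0.22 for Psmb10, 0.19 for Jak1, 0.050 for Creb1 and 0.29 for Irf2. For genes of similar pattern it was then 0.00403 for Sema6a, 0.23 for Gar1, 0.28 for Pithd1, 0.038 for Actl6a, 0.20 for Ccdc115, 0.20 for Flna, 0.037 for Ciz1 and 0.23 for Pea15a. H2-Ab1 was at -0.31 with limma-voom and -0.026 with the replicate block. H2-K1 was at -0.029 with limma-voom, -0.023 with the block and -0.0028 with the deposited library sizes.

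With 1 library left out, the log2 change ran from -1.02 to 0.28 for H2-Aa, -0.58 to 0.59 for H2-Ab1, -0.76 to 0.33 for H2-Eb1, -0.52 to 0.50 for Cd74, -0.31 to 0.19 for H2-K1, -0.41 to 0.047 for H2-D1 and -0.24 to 0.082 for Tap2. It ran from -0.39 to 0.10 for H2-T22, -0.050 to 0.22 for Lnpep, -0.13 to 0.16 for Irf2, -0.017 to 0.52 for Ifngr1, -0.053 to 0.15 for Ifnar2, -0.65 to 0.027 for Sema6a, -0.30 to 0.27 for Gar1, -0.27 to 0.31 for Pithd1, -0.36 to 0.067 for Ccdc115, -0.28 to 0.033 for Flna and -0.24 to 0.051 for Pea15a. The cause was not tested. Tap1, Ciita, Nlrc5 and the peptide exchange genes were limited by depth.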
